A study of Mus musculus with 20 samples.

Results

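The genes described are 40 genes of the elastic fibre, the proteoglycans and the glycoproteins of the extracellular matrix. They were chosen by name, from known function, and every member was found among the 14793 genes of the deposited table. Whole knee joints of 20 male C57BL/6Nci mice, 12 weeks old at the start, were sequenced in bulk after surgical destabilization of the medial meniscus (DMM), 5 joints to a group. Joints of the control group had only a needle inserted. The other joints were injected in weeks 3 and 5 after surgery with adipose-derived mesenchymal stromal cells (MSC) that were non-activated (MSC), activated with polyinosinic-polycytidylic acid, an agonist of Toll-like receptor 3 (TLR3-MSC), or activated with cGAMP, an agonist of the cytoplasmic DNA sensing pathway (STING-MSC). All injected cells came from pooled donor mice of the same strain, so that their RNA cannot be told from that of the host joint. Joints were collected en bloc with cartilage, synovium, capsule and subchondral bone. The sources give differing collection times, at the end of the study in the methods and the day after injection in the results text.

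Elastic fibres consist of an elastin core laid down on microfibrils of fibrillin, with microfibril-associated glycoproteins, emilins and fibulins at their surface, and lysyl oxidases join elastin and collagen chains by cross-links. Latent TGF-β binding proteins (LTBPs) tether stored TGF-β to the microfibrils. Small leucine-rich proteoglycans coat collagen fibrils and set their diameter, and fibronectin, tenascins, thrombospondins and periostin link cells to the matrix, in the joint mainly in synovium, capsule, ligament and tendon insertions.

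Libraries held 27955496 to 52529973 reads on the genes of the table, with a median of 33523061, and values are normalized counts, that is, reads divided by a size factor for each library. No member was at 0 in any joint. The lowest value was that of Tnr, with 4 reads in MSC joint 4, and every other member had at least 50 reads in every joint. Expressed per kb of the longest annotated transcript, the members spanned a wide range of levels. Fn1, encoding fibronectin, was highest with a control mean of 80923 normalized counts per kb, followed by the proteoglycans Bgn (18768) and Dcn (7234). Thbs4 (5495), Lum (3535), Postn (2448), Thbs1 (2281), Tnc (2206), Ltbp3 (1823) and Loxl1 (1699) completed the 10 highest on the same per kb scale. Between all neighbours in this order the ranges of the control joints overlapped. At the lower end were Fbn2, the fibrillin best known from developing tissue, at 53.2 and Tnr, a tenascin best known from the nervous system, at 20.8 normalized counts per kb.

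**Figure D1:**
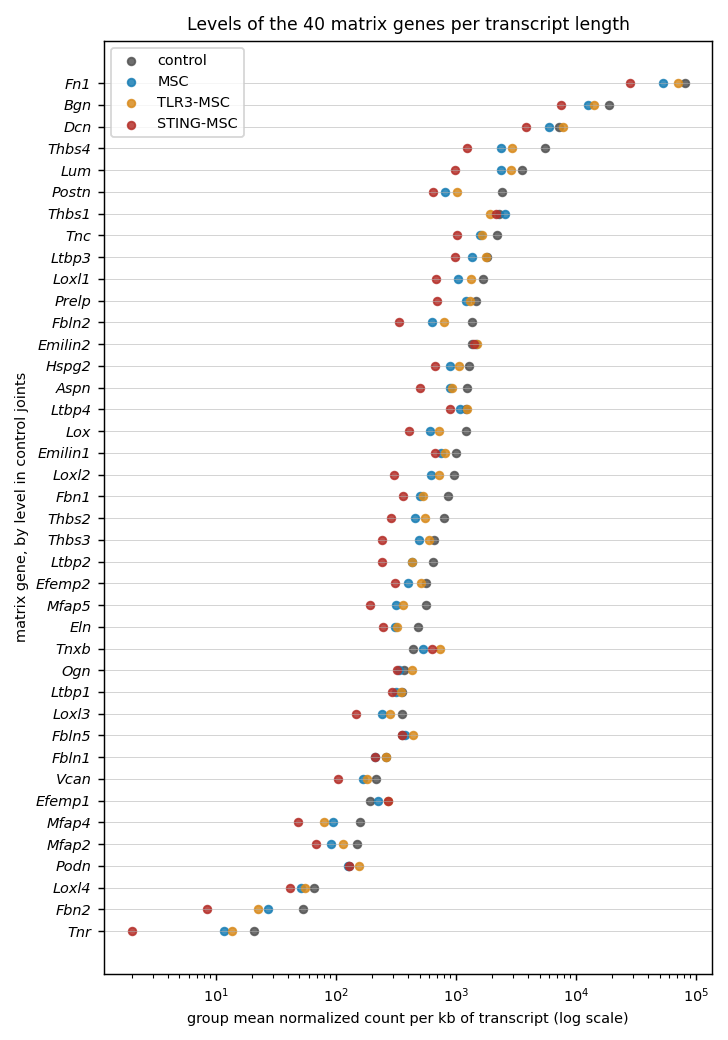
Mean normalized count per kb of transcript of each of the 40 matrix genes (rows, ordered by their level in control joints) on a log axis, with 1 point per group of 5 joints. Fn1 was highest in every group, and the STING-MSC point was the lowest of the 4 for most genes. The points are means without error bars.

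Matrix genes varied together between joints of the same group. Controls 3 and 4 were the 2 highest control joints for 32 of 40 members, MSC joint 2 was the highest MSC joint for 37, and TLR3-MSC joint 5 was the highest of its group for 27. These 4 joints were also the 4 highest of all 20 for 25 members. MSC joint 4 was the lowest MSC joint for 37 members and STING-MSC joint 5 the lowest of its group for 34. Over the members, the median deviation from each gene's own mean on the log2 scale was 1.08 in control 3, 1.53 in control 4, 1.28 in MSC joint 2 and 0.99 in TLR3-MSC joint 5. It was −1.44 in MSC joint 4 and −1.16 in STING-MSC joint 5, and lay between −0.45 and −0.28 in the other STING-MSC joints. Joints of the other groups lay near that level too. These were controls 1 (−0.25) and 5 (−0.21), MSC joints 1 (−0.47) and 3 (−0.49), and TLR3-MSC joints 1 (−0.25) and 4 (−0.39). The remaining joints lay above 0, control 2 at 0.21, MSC joint 5 at 0.38 and TLR3-MSC joints 2 and 3 at 0.55 and 0.05. No STING-MSC joint was among the high ones. The standard deviation on the log2 scale was smaller in STING-MSC than in control joints for 37 members, with medians over the members of 0.40 and 0.85, against 1.07 in MSC and 0.67 in TLR3-MSC joints.

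**Figure D2:**
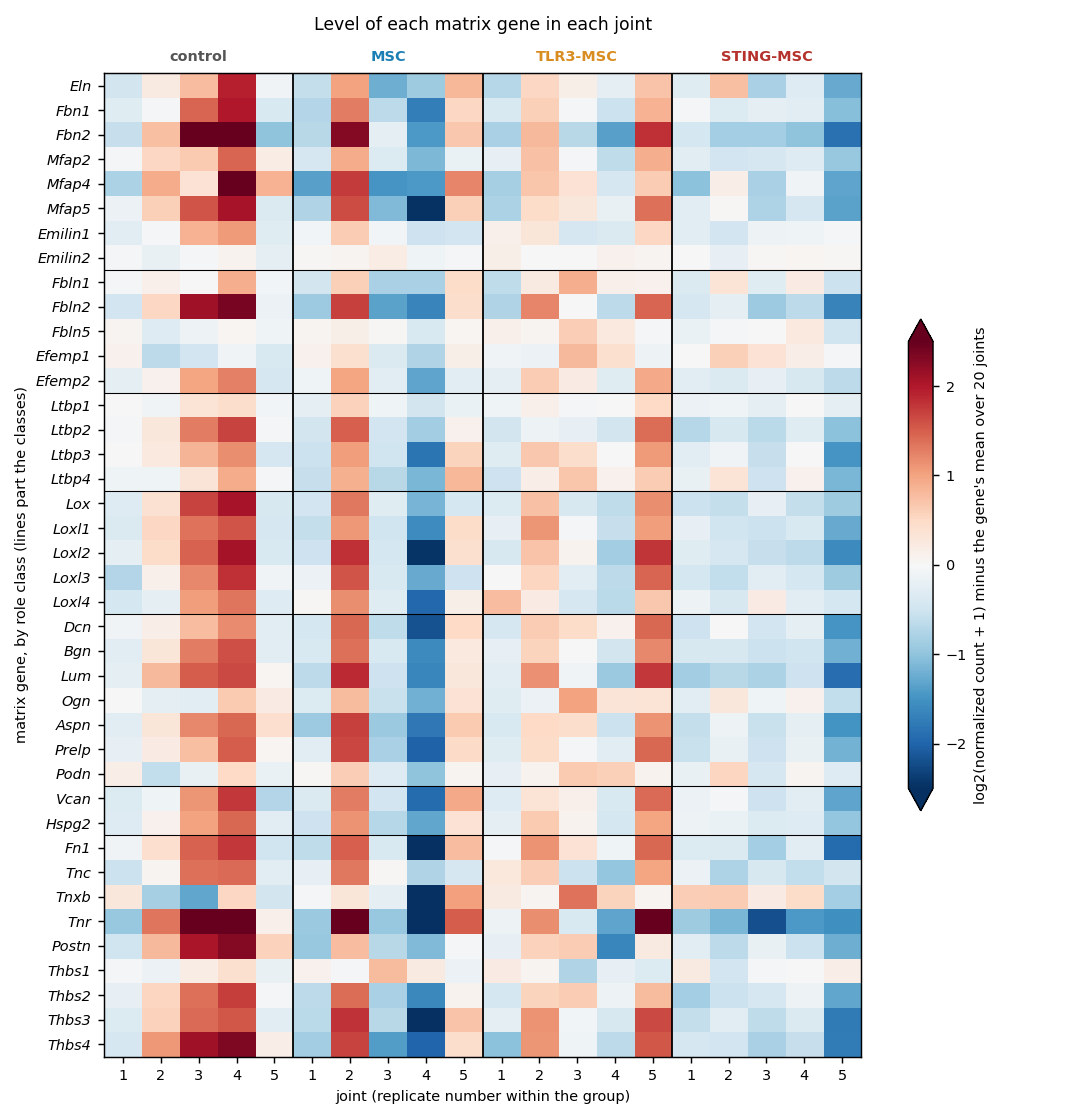
Deviation of log2(normalized count + 1) from each gene's mean over the 20 joints, for the 40 matrix genes (rows, in their role classes) and 20 joints (columns, replicates 1 to 5 of each group). The colour scale ends at ±2.5 and 11 of 800 values lie beyond it. Controls 3 and 4, MSC joint 2 and TLR3-MSC joint 5 are red down most of the column, MSC joint 4 and STING-MSC joint 5 blue.

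Fibronectin alone shows the size of this variation. Fn1 took 3.26% of the reads in control 4 and was the gene with the highest normalized count of the whole table in controls 3 and 4, MSC joint 2 and TLR3-MSC joint 5. In MSC joint 4 it took 0.101% and ranked 76. The 40 members together took between 0.342% (MSC joint 4) and 4.67% (control 4) of the reads.

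The same joints were high in fibroblast markers, and also in the chondrocyte, osteoblast and tendon markers given further below. The summed normalized count of 8 markers (Pdgfra, Pdgfrb, Thy1, Pdpn, Col1a1, Col1a2, Col3a1 and Dpt), all above 0 in every joint, ranged from 318799 to 1242535 in control, 254595 to 1013971 in MSC, 189723 to 811955 in TLR3-MSC and 214339 to 427121 in STING-MSC joints. The 2 highest controls were again joints 3 (1195778) and 4 (1242535), and STING-MSC joint 5 was the lowest of its group. Their mean level on the log2 scale ran from 11.7 in MSC joint 4 to 14.7 in control 4. Between STING-MSC and control joints, 2 of the 8 fell at the unadjusted threshold of 0.05 in limma used below, Col3a1 (log2 fold change −2.05, FDR = 0.351) and Pdgfrb (−0.52, FDR = 0.398). All 8 had a lower mean on the log2 scale. Col1a1, Col1a2, Col3a1 and Dpt encode matrix proteins themselves, so agreement of these markers with the members is no separate measure of fibroblast content. In bulk tissue, fewer cells of a type and less RNA per cell cannot be told apart. The summed counts of 3 tendon and ligament markers (Tnmd, Scx and Mkx) were 409 to 1765 in control and 226 to 565 in STING-MSC joints, and 1 of them, Tnmd, fell (−1.46, FDR = 0.386). Those of 7 chondrocyte markers were 11108 to 100824 and 13345 to 55246, and those of 6 osteoblast and osteocyte markers (Bglap, Ibsp, Sp7, Dmp1, Alpl and Phex) 15173 to 42848 and 14368 to 22859. None of these passed the threshold. In controls 3 and 4, MSC joint 2 and TLR3-MSC joint 5 in turn, sums were 89120, 100824, 114058 and 93808 (chondrocyte), 42427, 42848, 39907 and 31093 (osteoblast) and 1593, 1765, 2261 and 1840 (tendon). The other joints reached at most 74139, 26759 and 1018. Of 5 endothelial markers 3 fell, with sums of 6928 to 12168 in control and 6034 to 8512 in STING-MSC joints. Of 6 neutrophil and marrow markers 4 rose, with sums of 294317 to 511454 and 421159.7 to 640257. None of the fibroblast, tendon, chondrocyte, osteoblast, endothelial or neutrophil markers was at 0 in any joint. The part of these cell populations in the results below was not tested, other than by the fits with the fibroblast markers given at the end.

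**Figure D3:**
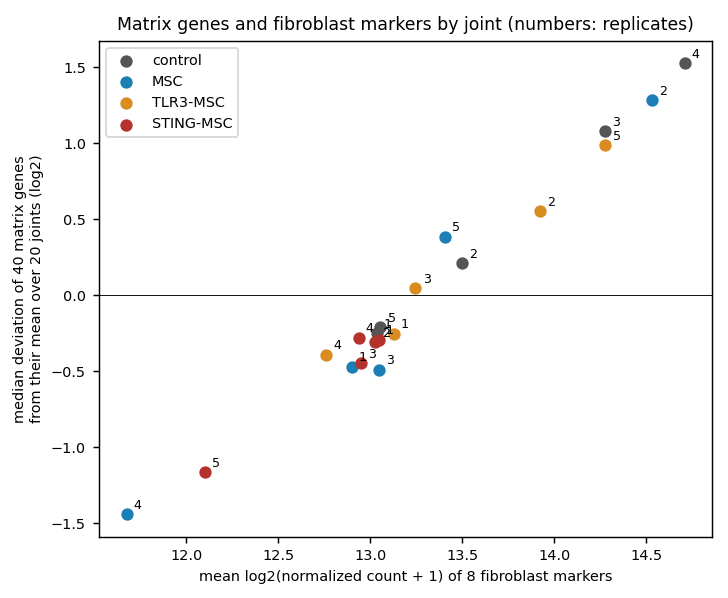
Median deviation of the 40 matrix genes from their mean over the 20 joints (y axis, log2) against the mean log2(normalized count + 1) of 8 fibroblast markers (x axis), 1 point per joint, numbered by replicate and coloured by group. Both quantities come from the same libraries. Control 4 lies at the upper right, MSC joint 4 at the lower left, and the 5 STING-MSC joints lie below 0 on the y axis.

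The comparison of STING-MSC with control joints set injected activated cells against needle insertion alone. The injected fluid, the cells and their activation cannot be told apart in it. In STING-MSC joints 16 of 40 matrix genes fell and 1 rose at an unadjusted p of at most 0.05 in limma, fitted over all genes and all 4 groups. Among all 14793 genes tested, 5.69% fell and 6.54% rose by the same rule. All 16 fell at least 2-fold, and 1.78% of all genes passed the same threshold with a fall of that size. The 16 members were Postn, Mfap2, Lum, Ltbp2, Thbs2, Thbs4, Tnr, Lox, Fbln2, Fbn2, Bgn, Loxl1, Aspn, Loxl2, Mfap4 and Mfap5, and the gene that rose was Efemp1. The mean on the log2 scale was lower for 37 of 40 members and for 48.3% of all genes. The median log2 fold change was −0.96 over the members and 0.01 over all genes. In 4 members, Mfap2, Lum, Ltbp2 and Bgn, every STING-MSC joint was below every control joint, as in 1.24% of all genes. After Benjamini-Hochberg adjustment over all genes no member, and no gene of the table, passed an FDR of 0.05 in limma. The smallest FDR of a member was 0.291, for Postn. On the recovered reads edgeR called 0 members at that FDR and DESeq2 called Postn (log2 fold change −1.91, FDR = 0.0223). Without controls 3 and 4 no member passed, with 0 higher and 0 lower in limma at the unadjusted threshold, and the median of the members was −0.44. Among all genes 3.16% were called in that fit. Both controls were left out after they were seen to be high in the members, so a shift of the members upward follows from that choice. The count of members past the threshold was 7 without control 4 (5.87% of all genes called), 8 without control 3 (7.47%), 9 without STING-MSC joint 5 (6.92%) and 26 without control 1 (15.7%).

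**Figure D4:**
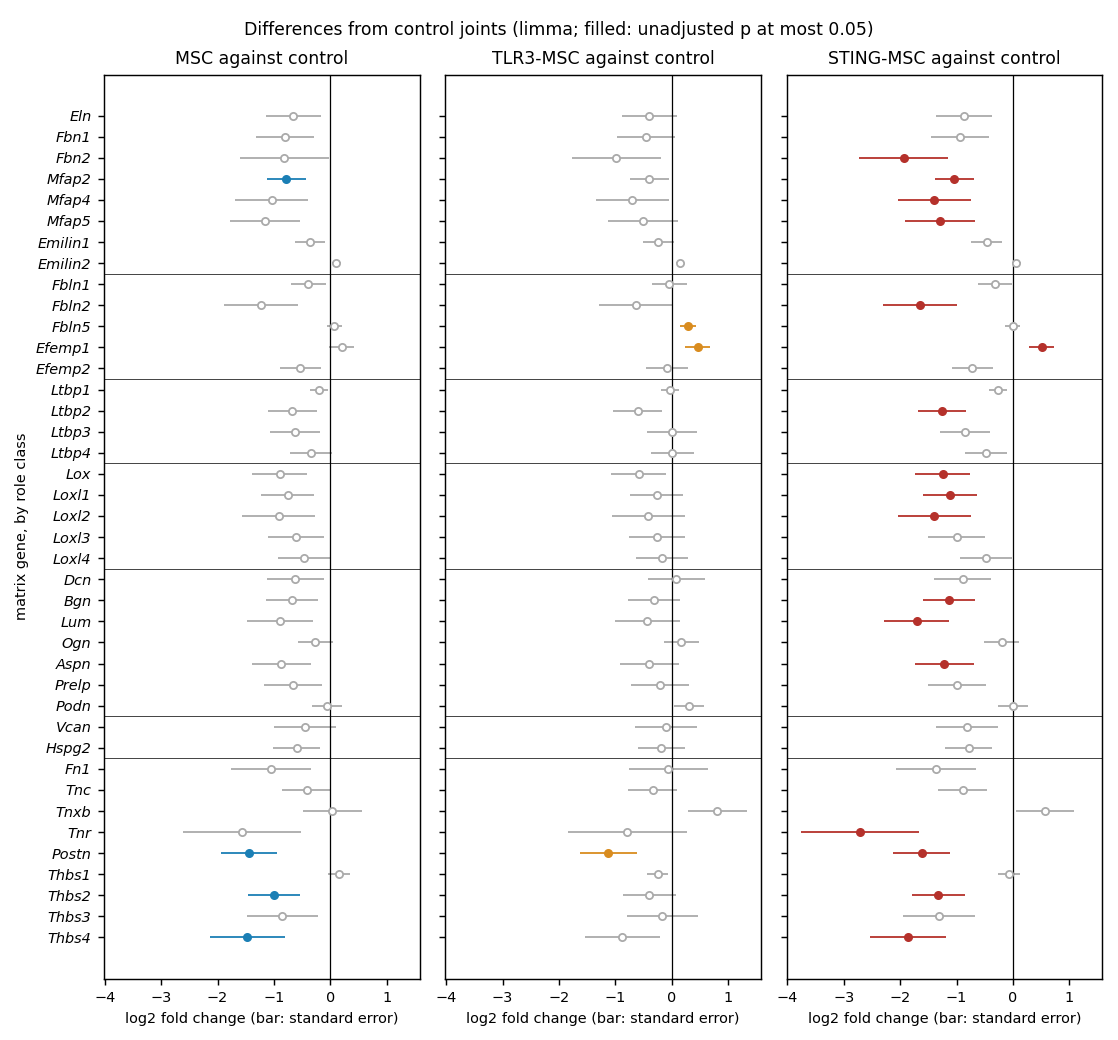
Log2 fold change of each of the 40 matrix genes against control joints in limma, with standard error, for MSC, TLR3-MSC and STING-MSC joints (5 joints per group, the same 5 controls in each panel). Filled points have an unadjusted p of at most 0.05. The filled points number 4 (MSC), 3 (TLR3-MSC) and 17 (STING-MSC), and in the STING-MSC panel 37 of 40 points lie left of 0.

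Adhesive and matricellular glycoproteins had 4 of 9 members that fell in STING-MSC joints, with a class median of −1.32 on the log2 scale. Postn (ENSMUSG00000027750, chr3:54268530-54298459, plus strand, GRCm39 as are all positions of genes) encodes periostin, a matricellular protein of periosteum, ligament and tendon. Postn had normalized counts of 3471, 8674, 20388, 24052 and 7341 in control joints 1 to 5, 2553, 8388, 3056, 2294 and 4847 in MSC joints, 4278, 7384, 7612, 1591 and 5783 in TLR3-MSC joints, and 4088, 3107, 4317, 3411 and 2117 in STING-MSC joints. Controls 3 and 4 stood above every other joint, and control 1 alone lay within the STING-MSC range. Group means were 12785 ± 8917 in control, 4228 ± 2530.0 in MSC, 5329.8 ± 2486 in TLR3-MSC and 3408 ± 873 in STING-MSC joints (SD, n = 5 each). The fall in STING-MSC joints was 3.07-fold, with a log2 fold change of −1.62 ± 0.50 (SE), limma p = 0.00444 and exact p = 0.0238. The exact p is that of a two-sided permutation test, whose smallest possible p with 5 joints against 5 is 0.00794.

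Thbs2 (ENSMUSG00000023885, chr17:14885762-14914498, minus strand) and Thbs4 (ENSMUSG00000021702, chr13:92888098-92931327, minus strand) encode thrombospondins, secreted glycoproteins that bind collagens and cell receptors, and Thbs4 is known from tendon and muscle. Thbs2 was measured at 2578, 4312, 7735, 9936 and 2924 in control joints 1 to 5, 1893, 7920.4, 1702, 978 and 3192 in MSC joints, 2205, 4371, 4637, 2735 and 5200.3 in TLR3-MSC joints, and 1652, 2055, 2243, 2749.9 and 1218 in STING-MSC joints. STING-MSC joint 4 was the only one of its group that reached the control range, and MSC joint 2 lay between controls 3 and 4. Thbs4 stood at 5227, 14936, 30608, 35339 and 7884 in control joints 1 to 5, 3877, 22850.2, 2661, 1776 and 9599 in MSC joints, 3469, 15195, 6493, 4468 and 20773 in TLR3-MSC joints, and 5283, 5025, 4018, 4701 and 2091 in STING-MSC joints. Here STING-MSC joint 1 slightly exceeded control 1, and the other 4 STING-MSC joints were below all controls. Mean normalized counts of Thbs2 were 5497 ± 3212 in control, 3137 ± 2791 in MSC, 3829.8 ± 1291 in TLR3-MSC and 1984 ± 582 in STING-MSC joints, and those of Thbs4 were 18799 ± 13521 in control, 8153 ± 8764 in MSC, 10079 ± 7559 in TLR3-MSC and 4224 ± 1283 in STING-MSC joints (SD, n = 5 each). In limma the log2 fold change of STING-MSC against control was −1.32 ± 0.46 for Thbs2 (limma p = 0.0103, exact p = 0.0159) and −1.86 ± 0.67 for Thbs4 (limma p = 0.0117, exact p = 0.0159). Tnr had low normalized counts, of 33.9, 168, 435, 581 and 72.8 in control joints 1 to 5, 34.2, 471, 33.8, 3.30 and 190.3 in MSC joints, 60.7, 149.6, 50.9, 25.9 and 561 in TLR3-MSC joints, and 35.4, 29.4, 13.6, 23.7 and 22.1 in STING-MSC joints. The 4 STING-MSC joints other than joint 1 were below the lowest control. Group means of Tnr were 258 ± 239 in control, 147 ± 196 in MSC, 169.5 ± 224 in TLR3-MSC and 24.8 ± 8.19 in STING-MSC joints, and its log2 fold change of −2.71 ± 1.05 (limma p = 0.0184, exact p = 0.0159) was the largest of the members and among those with the widest error.

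Of the other glycoproteins, none of Fn1, Tnc, Tnxb, Thbs1 and Thbs3 passed the threshold. Mean normalized counts of Fn1 were 680561 ± 439383 in control, 446539 ± 396432 in MSC, 600543 ± 291799.9 in TLR3-MSC and 239195 ± 88770.1 in STING-MSC joints (SD, n = 5 each), and its log2 fold change in STING-MSC against control joints was −1.36 ± 0.71 (limma p = 0.0688, exact p = 0.0317). Tnc, a tenascin made in injured and loaded tissue, had means of 16099.8 ± 10102 in control, 11723 ± 7871 in MSC, 12202 ± 6249.9 in TLR3-MSC and 7451 ± 1222 in STING-MSC joints, with a log2 fold change of −0.89 ± 0.44 (limma p = 0.0552, exact p = 0.0635). For both genes controls 3 and 4 were the highest controls. Thbs1, a thrombospondin that can activate latent TGF-β, had means of 14220.3 ± 2518 in control, 16018 ± 4549 in MSC, 12119 ± 2957 in TLR3-MSC and 13611 ± 2393 in STING-MSC joints and a log2 fold change of −0.07 ± 0.19. Tnxb, the tenascin of loose connective tissue, had the highest log2 fold change of the members, 0.57 ± 0.52 (limma p = 0.288, exact p = 0.238). Thbs3 missed the threshold with −1.31 ± 0.63 (limma p = 0.0523, exact p = 0.0238).

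**Figure D5:**
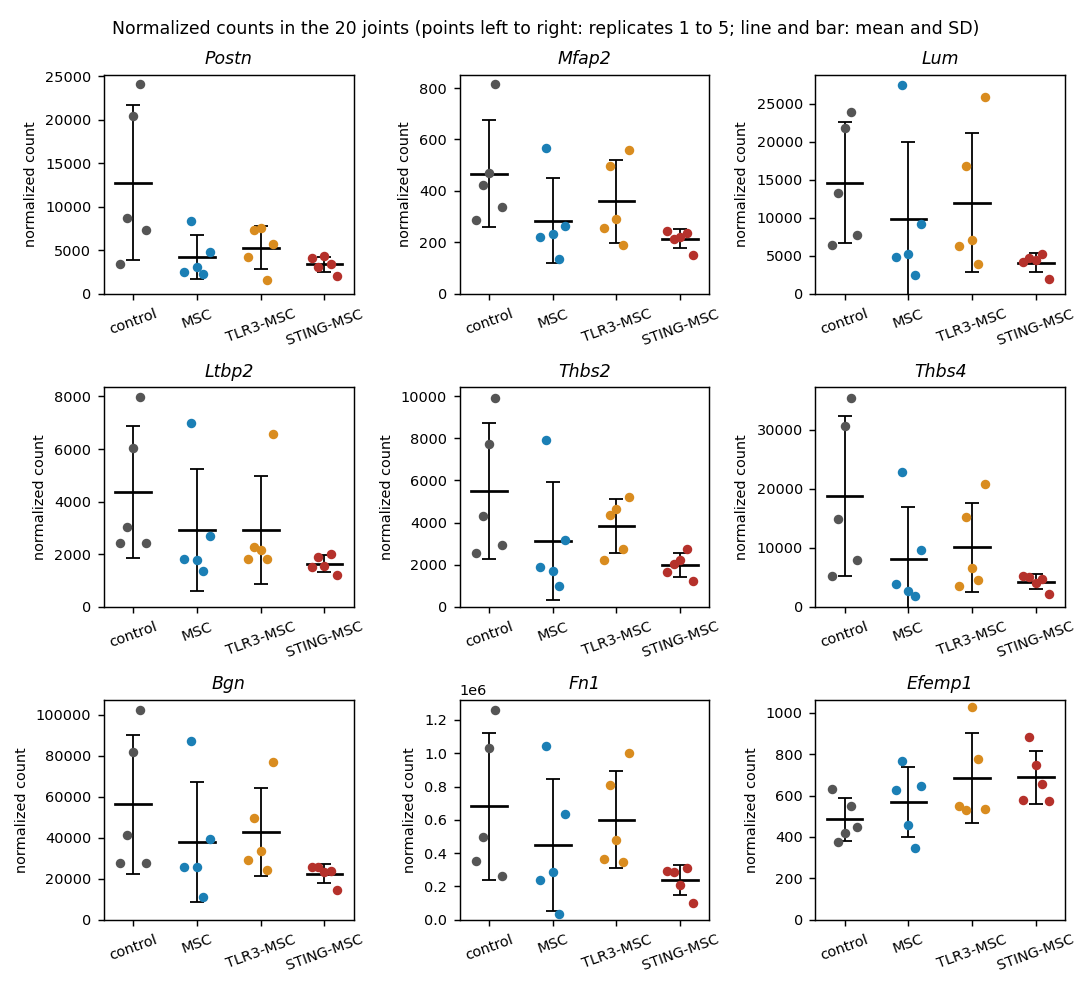
Normalized counts of Postn, Mfap2, Lum, Ltbp2, Thbs2, Thbs4, Bgn, Fn1 and Efemp1 in every joint (points, replicates 1 to 5 from left to right in each group), with the mean (line) and SD (bar, cut at 0 where it would pass below it). The y axes start at 0 and differ between panels. In Mfap2, Lum, Ltbp2 and Bgn all 5 STING-MSC points lie below the lowest control point, and in Efemp1 3 of 5 lie above the highest.

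In the elastic fibre and microfibril core, 4 of 8 members fell in STING-MSC joints (Mfap2, Mfap4, Mfap5 and Fbn2), and the class median was −0.99. Mfap2 (ENSMUSG00000060572, chr4:140737729-140743296, plus strand) encodes a microfibril-associated glycoprotein that binds fibrillin. Mfap2 had normalized counts of 289, 423, 470.0, 817 and 337 in control joints 1 to 5, 222, 567, 234, 135 and 264 in MSC joints, 257, 496, 291, 192 and 561 in TLR3-MSC joints, and 245, 214, 221, 237 and 153 in STING-MSC joints. All 5 STING-MSC joints were below the lowest control, and so were 4 of 5 MSC joints. The means were 467 ± 208 in control, 284 ± 165 in MSC, 359 ± 160.0 in TLR3-MSC and 214 ± 36.6 in STING-MSC joints (SD, n = 5 each). Mfap2 fell 2.06-fold in STING-MSC joints (log2 fold change −1.04 ± 0.35, limma p = 0.00744, exact p = 0.00794, the smallest possible). Fbn2 read 122, 304, 1222, 1221 and 89.8 in control joints 1 to 5, 111, 896, 153, 65.9 and 288 in MSC joints, 103, 317, 111, 70.4 and 643 in TLR3-MSC joints, and 132, 100.3, 100.1, 89.96 and 48.9 in STING-MSC joints. For Fbn2 the groups overlapped widely, since controls 1 and 5 were as low as the STING-MSC joints, and controls 3 and 4 were the highest of all 20 joints. Its means were 592 ± 581 in control, 303 ± 342 in MSC, 249 ± 241 in TLR3-MSC and 94.3 ± 30.01 in STING-MSC joints, with a log2 fold change of −1.94 ± 0.79 (limma p = 0.0239, exact p = 0.0714). Mfap4 and Mfap5, further microfibril-associated glycoproteins, had log2 fold changes of −1.39 ± 0.65 (limma p = 0.0451, exact p = 0.0397) and −1.30 ± 0.62 (limma p = 0.05, exact p = 0.0476) in limma. The gene of Mfap4 overlaps that of Mapk7 on the other strand, and whether reads were counted by strand is not given in the sources used here. Eln, encoding elastin itself, had −0.87 ± 0.49 (limma p = 0.0925, exact p = 0.143) and Fbn1, the main fibrillin of adult tissue, −0.94 ± 0.52 (limma p = 0.0851, exact p = 0.175). Emilin1 had −0.47 ± 0.27, and Emilin2 was nearly level at 0.06 ± 0.07 on the same scale.

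Of 4 LTBPs only Ltbp2 passed the threshold. Ltbp2 (ENSMUSG00000002020, chr12:84829986-84923307, minus strand) encodes the family member that binds fibrillin microfibrils but not latent TGF-β. Ltbp2 had normalized counts of 2437, 3018, 6026, 7975 and 2422 in control joints 1 to 5, 1816, 6990.1, 1785, 1361 and 2686 in MSC joints, 1815, 2269, 2169, 1806 and 6577 in TLR3-MSC joints, and 1509, 1896, 1563, 2018 and 1216 in STING-MSC joints. All STING-MSC joints were below all controls, and TLR3-MSC joint 5 lay far above the other 4 joints of its group. Mean values were 4375 ± 2505 in control, 2927 ± 2322 in MSC, 2927 ± 2051 in TLR3-MSC and 1640.3 ± 321 in STING-MSC joints (SD, n = 5 each), and the fall in STING-MSC joints was 2.39-fold (log2 fold change −1.26 ± 0.43, limma p = 0.00911, exact p = 0.00794). The LTBPs that carry latent TGF-β had log2 fold changes of −0.27 ± 0.16 for Ltbp1 (limma p = 0.103, exact p = 0.0397), −0.86 ± 0.44 for Ltbp3 (limma p = 0.0697, exact p = 0.0635) and −0.48 ± 0.38 for Ltbp4 (limma p = 0.22, exact p = 0.206) in limma. Means of Ltbp3, the most abundant of them per kb, were 10445 ± 4593 in control, 7789 ± 5335 in MSC, 10287 ± 3826 in TLR3-MSC and 5667 ± 1908 in STING-MSC joints.

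Lysyl oxidases, the copper enzymes that cross-link elastin and collagen, had 3 of 5 members that fell in STING-MSC joints (Lox, Loxl1 and Loxl2), with a class median of −1.11. Lox had 2262, 3679, 9162, 11791 and 2162 in control joints 1 to 5, 2040.0, 7041, 2302, 1259 and 2081 in MSC joints, 2227, 4714, 2139.6, 1821 and 6306 in TLR3-MSC joints, and 1964, 1884, 2459, 1870.3 and 1528 in STING-MSC joints. STING-MSC joint 3 was above the lowest 2 controls, and the other 4 STING-MSC joints were below all controls. Loxl1 had 2609, 4787, 8498, 9908 and 2492 in control joints 1 to 5, 2204, 7051, 2357, 1117 and 4607 in MSC joints, 2882, 7190.3, 3249.6, 2248 and 6865 in TLR3-MSC joints, and 2902, 2362, 2284, 2543 and 1391 in STING-MSC joints. STING-MSC joints 1 and 4 lay within the control range. Loxl2 had 2199, 3558, 7179, 10921 and 1975 in control joints 1 to 5, 1811, 9120.0, 1906, 468 and 3399 in MSC joints, 1957, 4253, 2723, 1408 and 8958 in TLR3-MSC joints, and 2084, 1914, 1729, 1642 and 855 in STING-MSC joints. Only STING-MSC joint 1 reached the control range. Mean normalized counts were 5811 ± 4400.1 in control, 2945 ± 2323 in MSC, 3441 ± 1976 in TLR3-MSC and 1941 ± 334 in STING-MSC joints for Lox, 5659 ± 3399 in control, 3467 ± 2371 in MSC, 4487 ± 2349.8 in TLR3-MSC and 2296 ± 559 in STING-MSC joints for Loxl1, and 5166 ± 3832 in control, 3341 ± 3393 in MSC, 3859.8 ± 3045 in TLR3-MSC and 1645 ± 473 in STING-MSC joints for Loxl2 (SD, n = 5 each). The log2 fold changes of STING-MSC against control in limma were −1.24 ± 0.49 for Lox (limma p = 0.0204, exact p = 0.0238), −1.11 ± 0.48 for Loxl1 (limma p = 0.031, exact p = 0.0556) and −1.39 ± 0.65 for Loxl2 (limma p = 0.0448, exact p = 0.0159). Loxl3 (limma p = 0.0588, exact p = 0.0556) and Loxl4 (−0.48 ± 0.46, limma p = 0.313, exact p = 0.341) did not pass. Loxl1 lies at chr9:58195021-58220470 on the minus strand and Loxl2 at chr14:69846517-69933284 on the plus strand, where it overlaps R3hcc1 on the other strand.

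Among the small leucine-rich proteoglycans 3 of 7 members fell (Lum, Bgn and Aspn), and the class median was −0.99. Lum (ENSMUSG00000036446, chr10:97400990-97408566, plus strand) encodes lumican, which coats collagen fibrils. Lum had normalized counts of 6388, 13298, 21797, 23902 and 7811 in control joints 1 to 5, 4809.9, 27472, 5309, 2438 and 9251 in MSC joints, 6298, 16773, 7141, 3989.6 and 25919 in TLR3-MSC joints, and 4166, 4698, 4406, 5302 and 2020.5 in STING-MSC joints. The STING-MSC joints were below all controls, and the highest joint of all was MSC joint 2. Mean values were 14639 ± 7961 in control, 9856 ± 10147 in MSC, 12024 ± 9176 in TLR3-MSC and 4119 ± 1247 in STING-MSC joints (SD, n = 5 each), and the fall in STING-MSC joints was 3.27-fold (log2 fold change −1.71 ± 0.58, limma p = 0.00845, exact p = 0.00794). Bgn (ENSMUSG00000031375, chrX:72527208-72539540, plus strand) encodes biglycan, a proteoglycan of bone, cartilage and tendon. Bgn had 27913, 41537, 81899, 102448 and 27635 in control joints 1 to 5, 25868, 87237, 25663, 11058 and 39559 in MSC joints, 29269, 49486, 33359, 24386 and 77228 in TLR3-MSC joints, and 25515, 25501, 23277, 23822 and 14638 in STING-MSC joints. Here too the STING-MSC joints were below all controls, though joints 1 and 2 came close to controls 1 and 5. Mean values of Bgn were 56286 ± 34024 in control, 37877 ± 29376 in MSC, 42746 ± 21455 in TLR3-MSC and 22551 ± 4534 in STING-MSC joints, with a log2 fold change of −1.13 ± 0.47 (limma p = 0.025, exact p = 0.00794). Aspn (ENSMUSG00000021388, chr13:49697919-49721042, plus strand) encodes asporin, a collagen-binding relative of decorin, and its gene overlaps Cenpp on the other strand. Aspn had 1775, 2611, 4889, 5768 and 2828 in control joints 1 to 5, 1131, 6908, 1108, 617 and 3331 in MSC joints, 1634, 2983, 2885, 1452 and 4623 in TLR3-MSC joints, and 1412, 1931, 1449, 1814 and 757 in STING-MSC joints. STING-MSC joints 2 and 4 were above control 1, the lowest control. Mean values of Aspn were 3574 ± 1678 in control, 2619 ± 2618 in MSC, 2715 ± 1275 in TLR3-MSC and 1473 ± 459 in STING-MSC joints, with a log2 fold change of −1.22 ± 0.52 (limma p = 0.0315, exact p = 0.0238).

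Dcn, encoding decorin, was the most abundant proteoglycan after Bgn per kb and did not pass, with means of 44901 ± 19754 in control, 37269.5 ± 31547 in MSC, 48606 ± 24501 in TLR3-MSC and 23772 ± 7818 in STING-MSC joints and a log2 fold change of −0.89 ± 0.51 in STING-MSC against control joints (limma p = 0.0957, exact p = 0.0397). Prelp had −0.99 ± 0.51 (limma p = 0.0691, exact p = 0.0238), Ogn −0.20 ± 0.31 (limma p = 0.53, exact p = 0.421) and Podn 0.00 ± 0.27 (limma p = 0.996, exact p = 0.992). The large proteoglycans were lower in mean without passing, Vcan (versican) with −0.81 ± 0.55 (limma p = 0.158, exact p = 0.222) and Hspg2 (perlecan, of basement membranes) with −0.78 ± 0.42 (limma p = 0.0762, exact p = 0.0873). Members that fell and members that did not lay next to each other within every class except the large proteoglycans.

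Fibulins, which bridge elastin and microfibrils, went both ways. Fbln2 (ENSMUSG00000064080, chr6:91189437-91249523, plus strand) fell in STING-MSC joints. Fbln2 had 1965, 3911, 11911, 14163 and 2466 in control joints 1 to 5, 1455, 8942, 1082, 871 and 3717 in MSC joints, 1621, 6416, 2701, 1743 and 7459 in TLR3-MSC joints, and 2048, 2312, 1457, 1730.4 and 862 in STING-MSC joints. STING-MSC joints 1 and 2 were within the control range, and the controls themselves ran over a wide range, with joints 3 and 4 far above the rest. Mean values were 6883 ± 5718 in control, 3213 ± 3398 in MSC, 3988 ± 2749.6 in TLR3-MSC and 1682 ± 560.2 in STING-MSC joints (SD, n = 5 each), with a log2 fold change of −1.66 ± 0.66 (limma p = 0.0208, exact p = 0.0238). Efemp1 (ENSMUSG00000020467, chr11:28803204-28876744, plus strand), encoding fibulin-3, was the member that rose. Efemp1 had normalized counts of 629.9, 373, 421, 549 and 450.4 in control joints 1 to 5, 629, 768, 457, 345 and 645 in MSC joints, 551, 528, 1027, 777 and 535 in TLR3-MSC joints, and 581, 883, 748, 657 and 575 in STING-MSC joints. In STING-MSC joints 2, 3 and 4 it was above every control, and joints 1 and 5 were within the control range. Controls 3 and 4 were not its highest controls. Mean values of Efemp1 were 485 ± 103 in control, 569 ± 167 in MSC, 684 ± 218 in TLR3-MSC and 689 ± 129 in STING-MSC joints, a 1.43-fold rise in STING-MSC (log2 fold change 0.51 ± 0.22, limma p = 0.0326, exact p = 0.0317). Fbln1 had −0.32 ± 0.31 (limma p = 0.313, exact p = 0.246), Fbln5, needed for elastic fibre assembly, −0.01 ± 0.14 (limma p = 0.965, exact p = 0.984), and Efemp2, which brings lysyl oxidase to elastin, −0.72 ± 0.37 (limma p = 0.0635, exact p = 0.0794).

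The upstream sequences of Postn, Mfap2, Thbs2 and Thbs4, the 4 members that fell in both MSC and STING-MSC joints against the same controls, and of Efemp1, the member that rose, are shown for comparison. They are the 250 bases before a transcription start listed in RefSeq, in the build GRCm38.p6, 5′ to 3′ on the strand of the gene. Postn has 2 listed starts and both are shown, and for the other genes the most upstream listed start was used. Capitals mark every match, on either strand, to a set of known short motifs. These were TATAAA, the letters of the TATA box, then TGANTCA, the site of AP-1 factors, next GGAATG, the site of TEAD factors, and last CAGACA, which SMAD factors bind.
Postn (first listed start), chr3:54359017-54359266, plus strand: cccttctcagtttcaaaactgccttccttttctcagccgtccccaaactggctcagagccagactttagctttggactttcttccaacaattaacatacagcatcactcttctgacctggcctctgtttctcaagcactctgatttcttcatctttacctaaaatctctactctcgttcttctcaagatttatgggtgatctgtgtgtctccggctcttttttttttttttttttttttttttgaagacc
Postn (second listed start), chr3:54360857-54361106, plus strand: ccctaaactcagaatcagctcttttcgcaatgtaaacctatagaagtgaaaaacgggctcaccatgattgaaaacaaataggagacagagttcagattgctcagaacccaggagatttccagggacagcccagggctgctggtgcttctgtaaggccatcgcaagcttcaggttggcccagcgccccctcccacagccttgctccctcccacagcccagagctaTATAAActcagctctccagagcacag
Mfap2, chr4:141010174-141010423, plus strand: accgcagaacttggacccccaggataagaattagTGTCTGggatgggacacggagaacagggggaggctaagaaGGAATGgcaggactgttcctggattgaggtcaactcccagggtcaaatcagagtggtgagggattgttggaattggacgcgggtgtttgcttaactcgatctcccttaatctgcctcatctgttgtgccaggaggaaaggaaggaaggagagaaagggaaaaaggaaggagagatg
Thbs2, chr17:14694263-14694512, minus strand: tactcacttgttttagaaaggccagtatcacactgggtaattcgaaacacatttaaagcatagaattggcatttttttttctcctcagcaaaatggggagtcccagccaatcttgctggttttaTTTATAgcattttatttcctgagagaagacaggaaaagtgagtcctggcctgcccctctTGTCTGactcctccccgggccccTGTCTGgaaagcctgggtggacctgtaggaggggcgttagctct
Thbs4, chr13:92794819-92795068, minus strand: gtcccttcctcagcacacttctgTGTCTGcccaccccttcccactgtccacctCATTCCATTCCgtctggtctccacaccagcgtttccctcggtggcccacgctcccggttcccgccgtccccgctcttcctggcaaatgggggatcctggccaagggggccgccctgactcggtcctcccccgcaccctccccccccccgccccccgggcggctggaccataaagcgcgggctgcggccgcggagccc
Efemp1, chr11:28852955-28853204, plus strand: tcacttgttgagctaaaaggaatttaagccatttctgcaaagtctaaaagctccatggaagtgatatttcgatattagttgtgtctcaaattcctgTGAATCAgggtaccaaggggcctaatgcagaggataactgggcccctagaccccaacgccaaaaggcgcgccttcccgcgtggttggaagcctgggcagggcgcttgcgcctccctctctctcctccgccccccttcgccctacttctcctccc
TATAAA was found near the second listed start of Postn and, on the reverse strand, near the middle of the Thbs2 sequence. GGAATG was found in Mfap2 (1 match) and Thbs4 (2 matches on the reverse strand, which share a base), and CAGACA in Mfap2 (1), Thbs2 (2) and Thbs4 (1). Efemp1 held the only TGANTCA of these sequences. Of 32851 promoter windows of the same length in the table, 12.4% held the TATA box letters, 6.75% those of AP-1, 12.6% those of TEAD and 17.1% those of SMAD. Sequences were found for 28 of 40 members, of which 4, 2, 3 and 5 held them at the most upstream listed start, in the same order. A match is a description of the letters and not a binding site.

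Against the same control joints, non-activated MSC gave 4 members that fell and 0 that rose at an unadjusted p of at most 0.05 in limma, where 2.91% of all genes fell and 5.64% rose. The members were Postn, Thbs4, Mfap2 and Thbs2, whose values in each joint are given above. Postn fell 2.72-fold (log2 fold change −1.44 ± 0.50, limma p = 0.00964, exact p = 0.0556) and Thbs4 2.78-fold (−1.47 ± 0.67, limma p = 0.0396, exact p = 0.119). Mfap2 fell 1.72-fold (−0.78 ± 0.35, limma p = 0.0371, exact p = 0.103) and Thbs2 1.99-fold (−0.99 ± 0.46, limma p = 0.0454, exact p = 0.167). In each of them MSC joint 2 lay within the control range and MSC joints 1, 3 and 4 were below every control, while MSC joint 5 was below every control for Mfap2 only. No member passed an FDR of 0.05 in limma, as against 0.00676% of all genes (1 gene), and the smallest value was 0.359 for Postn. The median log2 fold change was −0.66 over the members and −0.04 over all genes. On the log2 scale 35 of 40 members had a lower mean, as did 57.7% of all genes. By class the medians ran from −0.39 in the fibulins to −0.99 in the adhesive glycoproteins. The count rested on few joints. It was 25, all lower, without MSC joint 2 (16.7% of all genes called), 7 without control 1 (11.2%) and 7 without control 5 (7.65%). It was 1 when control 2, 3 or 4 or MSC joint 1, 3 or 4 was left out alone. In those fits 5.76% to 7.47% of all genes were called. Without controls 3 and 4 together 1 member passed, Emilin2, which was higher, where 5.38% of all genes were called. The median over the members also moved with single joints, to −1.05 without MSC joint 2, −0.31 without MSC joint 4 and −0.40 without control 4. It was −0.11, with 28 of 40 members lower, without controls 3 and 4 together.

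TLR3-MSC joints had 1 member that fell and 2 that rose against control in limma, where 0.906% of all genes fell and 2.68% rose at the same unadjusted threshold. Postn fell 2.18-fold (log2 fold change −1.12 ± 0.50, limma p = 0.0373, exact p = 0.151), although only TLR3-MSC joint 4 was below the lowest control. Efemp1 rose 1.38-fold (0.47 ± 0.22, limma p = 0.0488, exact p = 0.0873), with joints 3 and 4 above every control. Fbln5 (ENSMUSG00000021186, chr12:101712824-101785315, minus strand) was the other that rose. Fbln5 had normalized counts of 2448, 1879.8, 2143, 2423 and 2167 in control joints 1 to 5, 2446, 2587, 2405, 1789 and 2441 in MSC joints, 2551, 2459.8, 3609, 2784 and 2286 in TLR3-MSC joints, and 2086, 2291, 2325, 2759.9 and 1653 in STING-MSC joints. TLR3-MSC joint 5 was within the control range, the other 4 were above every control, and joint 3 was the highest of all 20. Its means were 2212 ± 233 in control, 2333 ± 312 in MSC, 2738 ± 519 in TLR3-MSC and 2223 ± 402 in STING-MSC joints (SD, n = 5 each), with a log2 fold change of 0.30 ± 0.14 (limma p = 0.0461, exact p = 0.0397). No member passed an FDR of 0.05, and the smallest FDR was 1. The median over the members was −0.25 and that over all genes −0.01, with a lower mean on the log2 scale in 31 of 40 members and in 52.1% of all genes. Without both controls 3 and 4 the median was 0.29 and 6 of 40 members were lower in TLR3-MSC joints. These were the 2 highest controls for 32 members and were left out after the values were seen. A shift upward therefore follows from that choice. TLR3-MSC joint 5, with a median deviation of 0.99, was kept in that fit. Without control 4 alone the median was −0.02 with 21 members lower, without control 3 alone −0.09 with 25, and without TLR3-MSC joint 4 −0.07 with 26. It was −0.44 without control 1, −0.39 without control 5, −0.17 without TLR3-MSC joint 3 and −0.49 without TLR3-MSC joint 5. Leaving out control 3 or TLR3-MSC joint 4 left 0 members past the threshold (2.81% and 2.03% of all genes called). Leaving out control 2, control 5 or TLR3-MSC joint 3 left 1 (2.87%, 2.51% and 3.58%).

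Side by side against these shared controls, the log2 fold changes of Postn were −1.44 in MSC, −1.12 in TLR3-MSC and −1.62 in STING-MSC joints. Those of Lum were −0.89, −0.43 and −1.71, those of Bgn −0.68, −0.31 and −1.13, and those of Ltbp2 −0.67, −0.60 and −1.26. The groups of injected joints were also compared directly, since a fall past the threshold in 1 group and not in another does not show that they differ.

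Between STING-MSC and MSC joints, 0 members passed the unadjusted threshold in limma, against 4.94% of all genes in either direction. The smallest values of p belonged to Fbn2 (log2 fold change −1.12 ± 0.79, limma p = 0.172, exact p = 0.143) and Lum (−0.82 ± 0.58, limma p = 0.175, exact p = 0.198). Postn differed by −0.18 ± 0.50 (limma p = 0.73, exact p = 0.69) and Mfap2 by −0.26 ± 0.35 (limma p = 0.459, exact p = 0.54). With a median standard error of 0.48 over the members, differences near 2-fold between these groups were not detectable for many of them. Means on the log2 scale were lower in STING-MSC for 35 of 40 members and for 44.5% of all genes, with a median over the members of −0.27. The direction turned without MSC joint 2, where the median was 0.09 and 11 of 40 members were lower. The median was −0.64 with 39 lower without MSC joint 4, −0.11 with 29 without MSC joint 5 and −0.13 with 28 without STING-MSC joint 5. On the recovered reads edgeR called 3 members and DESeq2 2, all lower in STING-MSC joints, where 3.47% and 3.07% of all genes were called lower, shares of the same order.

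Between TLR3-MSC and MSC joints 0 members passed in limma, against 3.88% of all genes. On the recovered reads edgeR called 0 (3.99% of all genes called) and DESeq2 1 (4.69%). The smallest p in limma was that of Thbs1 (−0.40 ± 0.19, limma p = 0.0528, exact p = 0.135). The median over the members was 0.37, higher in TLR3-MSC joints, and 2 of 40 members had a lower mean on the log2 scale there, as did 42.6% of all genes. Without MSC joint 2 the median was 0.75, and 9 members were higher and 1 lower in TLR3-MSC joints, against 9.98% of all genes called in either direction in that fit. The median was 0.10, with 10 of 40 members lower, without MSC joint 4, 0.56 without MSC joint 5 or TLR3-MSC joint 4, and 0.22 without TLR3-MSC joint 5. Between STING-MSC and TLR3-MSC joints 2 members were lower and 0 higher, where 1.78% of all genes were lower and 0.784% higher by the same rule. Lum was 2.43-fold lower in STING-MSC joints (−1.28 ± 0.58, limma p = 0.0404, exact p = 0.0397), and TLR3-MSC joints 2 and 5 were far above all STING-MSC joints. Fbln5 was 1.23-fold lower (−0.30 ± 0.14, limma p = 0.0422, exact p = 0.119). In Fn1 every STING-MSC joint was below every TLR3-MSC joint, as in 1.12% of all genes, with a log2 fold change of −1.31 ± 0.71 (limma p = 0.0802, exact p = 0.00794). Fn1 had normalized counts of 364601, 812163, 479087, 345742 and 1001120.0 in TLR3-MSC joints 1 to 5, and 294023, 288140.0, 205865, 310102 and 97844 in STING-MSC joints. The highest STING-MSC joint was just below the lowest TLR3-MSC joint. The median over the members was −0.66, and 38 of 40 had a lower mean on the log2 scale in STING-MSC joints, as did 44.7% of all genes. Without TLR3-MSC joint 5 the median was −0.43, with 39 lower. With the fibroblast marker covariate described at the end, the median was −0.05, with 23 lower. TLR3-MSC joint 4 stood apart in 4 epidermis markers (Krt5, Krt14, Krt10 and Krt1), whose summed normalized count was 17925 there, 98.6 to 803 in the other TLR3-MSC joints, 19.2 to 122 in STING-MSC joints and at most 4615 (control 1) in the remaining joints, and 3 of them were at 0 in at least 1 of the 20 joints. Krt5 (−5.01, FDR = 0.890) and Krt10 (−2.39, FDR = 0.890) were lower in STING-MSC than in TLR3-MSC joints at the unadjusted threshold in limma. When TLR3-MSC joint 4 was left out, 4 matrix genes were lower in STING-MSC joints (3.65% of all genes called), with a median over the members of −0.84. No member passed an FDR of 0.05 in these 3 comparisons in limma, edgeR or DESeq2. Leaving out STING-MSC joint 1 or 5 left 0 members past the threshold between STING-MSC and TLR3-MSC (2.45% and 1.13% of all genes called). Leaving out TLR3-MSC joint 1 gave 5 (5.12%).

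Other matrix genes and the proteins that act with these members were counted in the same fit. Of 45 measured genes of further matrix glycoproteins and proteoglycans, 10 fell and 0 rose in STING-MSC against control joints, with a median of −0.65. Those with the smallest p were Ccn1, a matricellular protein that binds integrins, at 1009.9 ± 318 in STING-MSC and 2785 ± 1605 in control joints (log2 fold change −1.40 ± 0.36, limma p = 0.000896, exact p = 0.00794), Tnn, a tenascin of bone and periosteum, at 656 ± 266 in STING-MSC and 3015 ± 1933 in control joints (log2 fold change −2.04 ± 0.71, limma p = 0.00939, exact p = 0.0159), and Matn2, a matrilin, at 685 ± 125 in STING-MSC and 2541 ± 1666 in control joints (log2 fold change −1.63 ± 0.63, limma p = 0.0174, exact p = 0.00794). None of the 45 passed in MSC against control joints and 1, lower, passed in TLR3-MSC joints. Of 26 receptors, TGF-β ligands and processing enzymes, 5 fell and 1 rose in STING-MSC joints, with a median of −0.25. Sdc1, a heparan sulfate receptor of the cell surface, had 1429.8 ± 159 in STING-MSC and 3606 ± 2096 in control joints (log2 fold change −1.14 ± 0.40, limma p = 0.0103, exact p = 0.00794). Atp7a, the copper pump that loads lysyl oxidases, was the gene that rose, with 472 ± 63.5 in STING-MSC and 371 ± 65.1 in control joints (log2 fold change 0.35 ± 0.14, limma p = 0.0188, exact p = 0.0476). Itgb1, the integrin chain shared by most fibronectin and collagen receptors, had 13899.9 ± 1436 in STING-MSC and 18706 ± 4181 in control joints (log2 fold change −0.41 ± 0.17, limma p = 0.0302, exact p = 0.0238). Against the 5.69% of all genes that fell, the further matrix genes had 10 of 45 and the partner genes 5 of 26, and the difference between these lists was not tested.

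When the mean log2 level of the 8 fibroblast markers was added to the fit as a covariate, an alternative chosen after the values were seen, 4 members were lower and 2 higher in STING-MSC against control joints, where 1.41% of all genes were lower and 5.62% were called in either direction. The median over the members was −0.04, and 23 of 40 had a negative value, since 14 that were negative without the covariate were positive with it. Lum (−0.53 ± 0.18, FDR = 0.847), Mfap2 (−0.35 ± 0.12, FDR = 0.847), Postn (−0.76 ± 0.33, FDR = 0.862) and Thbs4 (−0.55 ± 0.26, FDR = 0.884) were lower on the log2 scale in that limma fit. Efemp1 (0.64 ± 0.24, FDR = 0.847) and Tnxb (1.09 ± 0.52, FDR = 0.884) were higher. The markers hold collagen genes and Dpt, which are matrix genes too, so this fit compares matrix genes relative to those markers. In the fit without controls 3 and 4 together, Postn had −0.87 ± 0.49 (FDR = 1), Mfap2 −0.71 ± 0.38 (FDR = 1), Lum −1.15 ± 0.65 (FDR = 1) and Efemp1 0.52 ± 0.27 (FDR = 1) in limma.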

How the data were processed

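RNA from 20 knee joints was sequenced, 5 for each group named in the labels, each joint from another mouse. The authors filtered out reads of low quality or with adapters, aligned the rest with STAR (version 2.7.3a, per the submitters' processing notes) to GRCm39, used HT-seq within Partek Flow to count them on Ensembl genes, and named DESeq2 for testing. The authors deposited normalized counts, which are a signal divided by a median-ratio size factor per library and not whole counts. Strand-aware counting and a filter on low counts are not given in the sources used here, so genes that overlap others are uncertain. In each library 99.84% to 99.92% of the values were whole multiples of 1 read (within 0.1 of a read), which gave the recovered reads and depths (27955496 to 52529973). Intervals of single counts cover counting error only.

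The main test was limma (version 3.58.1, run in R 4.3.3) on log2(normalized count + 1) with a mean-dependent prior, over 14793 genes and all 4 groups. It was used in place of the count test of the methods because the values are normalized. The minimum mean of 5 removed 0 genes. A member was called where the unadjusted p did not exceed 0.05, and FDR was taken over all genes by the Benjamini-Hochberg method. Single members were also compared by an exact two-sided permutation test over the 252 splits of 5 joints against 5. Fold changes are on the log2(normalized count + 1) scale, and so are the means compared where members with a lower mean are counted. Group means printed with SD are of normalized counts and can differ in order. Levels per kb use the longest transcript of the GENCODE annotation of GRCm39, and promoters come from RefSeq (GRCm38.p6). Motif letters were searched on both strands.

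Alternatives were pseudocounts of 0.5 and 5, no filter and a minimum mean of 20, quantile normalization, only the 2 groups compared, edgeR (version 4.0.16) and DESeq2 (version 1.42.0) on recovered reads, a block for the replicate number, and fits that drop each joint in turn. Leaving out controls 3 and 4 together and a fibroblast marker covariate were added after the values were seen. Controls 3 and 4 were the 2 highest controls for 32 of 40 members, so leaving them out raises most members against control in any comparison. The tests were tried on simulated counts, drawn independently for each gene with the same dispersion for all. The simulation lacked the shared variation between joints seen in the members, so it does not show how the tests perform on them. Values of every joint are given for up to 16 members past the threshold in any of 6 comparisons, ordered by their smallest p, means also for the 10 members highest per kb, and from each of the other lists the 3 genes with the smallest p. Fn1 in each joint, the overlapping genes and the marker genes were named after their values were seen. The members and lists were chosen with earlier results of these data known. P-values measure the spread between mice of 1 experiment.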

Additional observations from a re-analysis of the deposited data

Results flagged for a closer look

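In each gene and group of 5 joints, the highest and lowest joint were compared with the rest on the log2(normalized count + 1) scale. In 12 of 160 groups the gap between 1 joint and its nearest neighbour was more than 0.71 of the range of the group, the limit of Dixon's test at the 95% level, which chance alone passes in about 1 of 20 groups. STING-MSC joint 5 was that joint 8 times, always as the lowest. Its normalized counts were 2663 (the other 4 from 4401 to 5367) for Fbn1, 153 (the other 4 from 214 to 245) for Mfap2, 855 (the other 4 from 1642 to 2084) for Loxl2 and 14638 (the other 4 from 23277 to 25515) for Bgn. They were 2020.5 (the other 4 from 4166 to 5302) for Lum, 6456 (the other 4 from 9916 to 11463) for Hspg2, 3773 (the other 4 from 7891 to 10524) for Tnxb and 449 (the other 4 from 976 to 1256) for Thbs3. In Emilin2 STING-MSC joint 2 stood apart as the lowest of its group, at 5841 (the other 4 from 6723 to 6994). Control 4 was the highest control for Fbln1, at 1551 (the other 4 from 791 to 898), and MSC joint 4 the lowest MSC joint for Fbln5, at 1789 (the other 4 from 2405 to 2587). TLR3-MSC joint 5 was the highest of its group for Ltbp2, at 6577 (the other 4 from 1806 to 2269). The 8 genes share their libraries, so these are not separate observations. The lowest summed fibroblast markers of the STING-MSC group were also those of joint 5, 214339 normalized counts, and the part of this in the values above was not tested.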

How the results depend on the processing

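Counts of members past the unadjusted p, in both directions together, were 4 (MSC against control), 3 (TLR3-MSC against control) and 17 (STING-MSC against control). They were 0 for either activated group against MSC and 2 for STING-MSC against TLR3-MSC. The shares of all genes called were 8.55%, 3.58% and 12.2% against control, 4.94% (STING-MSC) and 3.88% (TLR3-MSC) against MSC, and 2.57%. The counts of members stayed within 1.5 times of these under pseudocounts of 0.5 and 5, no filter, a minimum mean of 20 and quantile normalization. With only the 2 groups compared in the fit they were 1 for MSC and 27 for STING-MSC against control, and 18 for STING-MSC against TLR3-MSC. With edgeR the counts of members were 1 for MSC and 26 for STING-MSC against control, 3 for STING-MSC against MSC and 7 for STING-MSC against TLR3-MSC. The shares of all genes called were 8.85%, 13.3%, 4.85% and 4.09% in the same order. With DESeq2 the counts of members were 29 for STING-MSC against control, 2 for STING-MSC against MSC, 1 for TLR3-MSC against MSC and 11 for STING-MSC against TLR3-MSC. The shares of all genes called were 15.2%, 6.26%, 4.69% and 4.57% in the same order. Without controls 3 and 4 the counts of members were 1, 1 and 0 against control for MSC, TLR3-MSC and STING-MSC, with 5.38%, 3.71% and 3.16% of all genes called. With the fibroblast marker covariate the counts were 5 for TLR3-MSC and 6 for STING-MSC against control (6.65% and 5.62% of all genes called). They were 2 for STING-MSC against MSC (6.60%), 1 for TLR3-MSC against MSC (5.14%) and 1 for STING-MSC against TLR3-MSC (1.22%). In that fit 14 of 40 members changed sign in STING-MSC against control joints, and none of them passed in either fit. They were Fbn1 (0.11), Fbln1 (0.0707), Fbln5 (0.0804), Efemp2 (0.0136), Ltbp1 (0.0168), Ltbp3 (0.018), Ltbp4 (0.14) and Loxl4 (0.37). The others were Dcn (0.10), Ogn (0.19), Prelp (0.0329), Podn (0.29), Vcan (0.29) and Hspg2 (0.065). Postn (0.11) changed sign in STING-MSC against MSC. With the covariate 10 members changed sign in MSC and 10 in TLR3-MSC against control. Against MSC 17 did in STING-MSC, Postn among them, and 15 in TLR3-MSC, and 15 did in STING-MSC against TLR3-MSC. Without controls 3 and 4, Fbln5 (0.0267), Loxl4 (0.13), Podn (0.14) and Thbs1 (0.10) changed sign in STING-MSC against control. In that fit 25 members did in TLR3-MSC against control, Lum (0.13) and Bgn (0.30) among them, and 7 in MSC against control. Podn (0.0603, quantile normalization) and Fbln5 (0.0066, DESeq2), both near 0, also changed sign in STING-MSC against control. Over the fits that leave out 1 joint, values in STING-MSC against control ran from −0.089 to 0.0958 for Fbln5 (4 turned), −0.1533 to 0.1377 for Podn (5) and −0.1279 to 0.0458 for Thbs1 (2), and in STING-MSC against MSC from −0.3514 to 0.1161 for Postn and −0.4886 to 0.0263 for Mfap2, both turned only without MSC joint 2. Leaving out each joint in turn gave, against control, 1 to 25 (MSC), 0 to 4 (TLR3-MSC) and 7 to 26 (STING-MSC), 0 to 1 for STING-MSC and 0 to 10 for TLR3-MSC against MSC, and 0 to 5 for STING-MSC against TLR3-MSC. The shares of all genes called in these fits moved too, from 5.76% to 16.7%, 2.03% to 5.48% and 5.87% to 15.7% against control. Against MSC they ran from 3.91% to 6.66% (STING-MSC) and 2.45% to 9.98% (TLR3-MSC), and for STING-MSC against TLR3-MSC from 0.973% to 5.12%. The cause of these shifts was not tested. Leaving out joints or groups changes both the degrees of freedom and the shared estimate of the spread. Same-numbered joints are different mice, and the labels give no pairing between groups. The deviations of same-numbered joints from their group means correlated at −0.14 to 0.11 on average. In STING-MSC against control 5 of 10 joints correlated best with their own number, and in the other comparisons 1 or 2 of 10. Whether this exceeds chance was not tested. With the replicate number as a block 1 member passed in TLR3-MSC, 4 in MSC and 14 in STING-MSC against control, with 3.20%, 7.90% and 10.8% of all genes called. Over 61 values of single members, the 40 of STING-MSC against control among them, 1027 of the refits kept their direction and side of the threshold, 141 lost the call, 69 gained it and 36 changed sign. Many of these values had not passed in the main fit and could not lose a call. In STING-MSC against control, Mfap5 lost its call in 12 refits and kept it in 9, and Loxl2 lost it in 10 and kept it in 11. Thbs2 in MSC against control lost it in 11 and kept it in 10. Postn, Mfap2, Lum and Thbs4 in STING-MSC against control each lost it in 1 and kept it in 20. Depth limits mainly Tnr, the member with the fewest reads.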
